A study of Mus musculus with 19 samples.

Results

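The 10 genes described here are expressed by endothelial cells, the cells that line blood and lymph vessels, and they were followed in cultures of fibroblasts from 7 organs of adult mice. They are the junction and surface genes Cdh5, Pecam1 and Emcn, the receptor genes Kdr, Tie1, Tek and Robo4, the enzyme gene Nos3 and the transcription factor genes Sox18 and Erg. Members were the array probes whose RefSeq accession maps to these genes, which gave 13 probes for 10 of the 19715 genes tested. Each gene is given by its complete probe with the highest mean, and the other probes of Kdr, Nos3 and Erg are described where they differ.

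The study profiled fibroblasts grown from gonad, liver, heart, kidney, lung, skin and tail of mice aged 8 to 10 weeks, with 18 scanned arrays used here: 3 each for gonad, liver, heart and tail and 2 each for kidney, lung and skin. Tissue was chopped, digested with trypsin or collagenase type II, plated in medium with 10% serum and cultured for 5 days, and the protocol in the labels has no step that sorts the cells. Strain, sex and genotype are not given in the sources used here, no group was treated, and the labels do not say whether the replicates of an organ came from separate animals, so p-values measure only the spread between these samples. All fibroblast marker genes of a list of 12 were well above background on every array of gonad, liver, heart, lung, skin and tail, and 11 of 12 were on both kidney arrays.

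Endothelial cells hold together through VE-cadherin, sense vascular endothelial growth factors and angiopoietins through receptor tyrosine kinases, and make nitric oxide to relax the vessel wall. In an intact organ these genes mark the vessels and not the fibroblasts of the connective tissue around them. The liver sinusoids are lined by endothelial cells of a specialised kind.

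Values are given as scaled signal, the background-subtracted spot intensity in percent of the 75th percentile of all probes on that array, and levels are compared between organs for 1 probe at a time. A spot counts as well above background by the scanner software's own flag. On 5 arrays (gonad 3, heart 1, kidney 1, kidney 2 and tail 2) the dark control spots were brighter than the scanner software accepts, and between 84.8% and 96.5% of probes were well above background there, against 50.1% to 76.9% on the other 13. Results are therefore also given for the 13 arrays, which hold no kidney. Each array carried the RNA of a whole culture, so that fewer endothelial cells and less of each RNA per cell cannot be told apart.

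All 10 genes were well above background on each of the 6 gonad and liver arrays, and also on both kidney arrays, lung 1 and skin 1. Of all probes, 52.9% to 90.8% passed on the gonad arrays and 52.9% to 64.8% on the liver arrays. The kidney arrays had 92.4% to 96.5%, lung 1 had 68.7% and skin 1 had 76.9%. Among the 8 arrays of heart, lung, skin and tail without high background, between 5 and 10 of the genes passed, with 50.1% to 76.9% of all probes. The genes dropped most often were Tie1 and Erg. On the high-background array heart 1 all 10 passed, with 95.5% of all probes. Heart 2 and heart 3 had 6 and 5, with 53.4% and 52.2% of all probes. Tie1, Emcn, Sox18 and Erg were not well above background on heart 2 or heart 3. Tail had between 5 and 7 on its 3 arrays, with 71.4% to 84.8% of all probes.

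In limma's moderated F test 8 of the 10 genes differed among the 7 organs at an adjusted p under 0.05, against 34.0% of all genes tested. Kdr (adjusted p = 0.072) and Erg (adjusted p = 0.19) did not pass. For Cdh5, Tie1, Robo4, Emcn and Sox18 every one of the 6 gonad and liver arrays lay above all 10 arrays of heart, lung, skin and tail, a separation that 0.416% of all genes showed. Tek did not share this order, and its highest levels were in tail and heart.

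**Figure D1:**
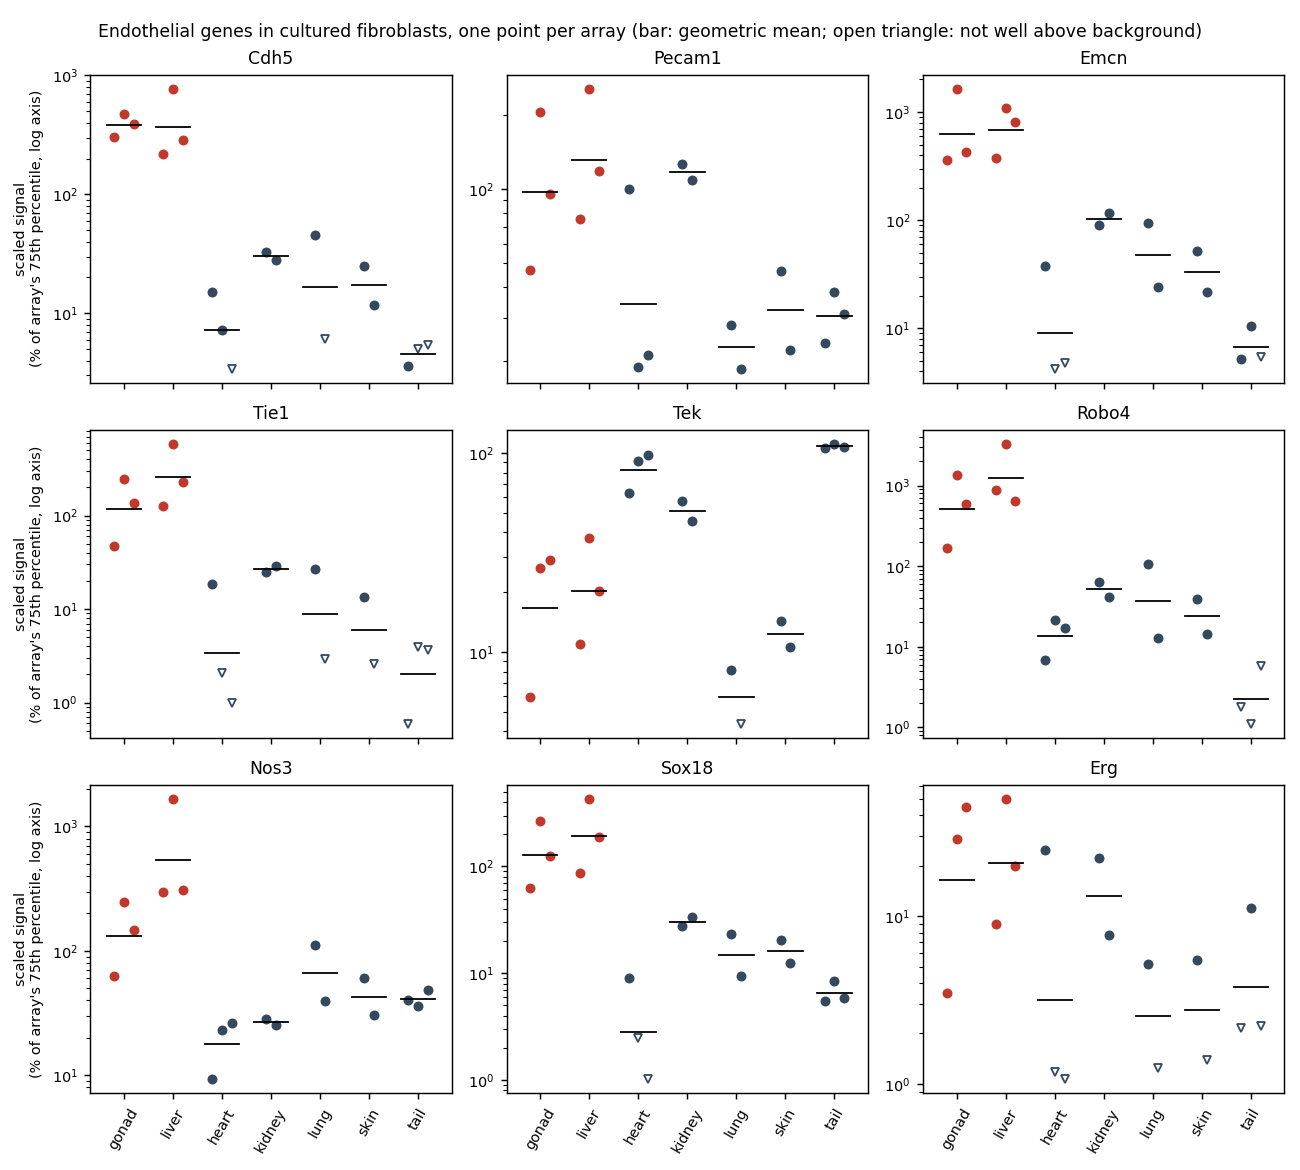
Scaled signal of 9 of the genes on each array (percent of the array's 75th percentile, log axis), by organ; bars are geometric means and open triangles are spots not well above background. Red points of gonad and liver lie above the points of heart, lung, skin and tail for Cdh5, Emcn, Tie1, Robo4 and Sox18, but for Tek they lie below those of tail and heart, and the 3 tail arrays lie between 106 and 111.

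Gonad cultures were compared with the other 6 organs, each organ's mean having equal weight. A gene was called where the adjusted p was below 0.05 and the log2 difference at least 1. Of the 10 genes 4 were higher in gonad and 0 lower, while 2.13% of all genes tested were higher. The 4 were Cdh5, Robo4, Emcn and Sox18. Liver cultures, set against the other 6 organs in the same way, had 6 of the 10 higher and 0 lower (Robo4, Tie1, Cdh5, Emcn, Nos3 and Sox18), while 1.21% of all genes were higher. The mean of the other organs holds the liver in the gonad comparison and the gonad in the liver comparison, so the comparisons share arrays. The median log2 difference of the 10 genes was 2.27 in gonad (all genes -0.06) and 3.59 in liver (all genes 0.12).

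Cdh5 encodes VE-cadherin, the adhesion molecule of endothelial junctions. Its scaled signal was 304, 477 and 388 in gonad and 219, 776 and 287 in liver. Heart arrays had 15.1, 7.31 and 3.42, kidney arrays 32.6 and 28.2, lung arrays 45.5 and 6.03, skin arrays 24.9 and 11.8 and tail arrays 3.57, 5.00 and 5.40. No gonad or liver array overlapped with any array of another organ, and heart 3, lung 3, tail 2 and tail 3 were not well above background. The difference was 4.14 ± 0.56 (log2 ± SE) in gonad (adjusted p = 8.6e-04) and 4.06 ± 0.56 in liver (adjusted p = 0.0021), by limma. The Cdh5 calls in both organs, and those of Robo4 and Nos3 in liver, were kept in all 18 fits that left out 1 array.

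Emcn, the gene of the endothelial sialomucin endomucin, had 358, 1649 and 425 in gonad and 373, 1083 and 805 in liver. The other organs had 37.4, 4.22 and 4.76 (heart), 90.5 and 115 (kidney), 93.4 and 24.3 (lung), 51.8 and 21.5 (skin) and 5.23, 10.6 and 5.39 (tail). Gonad and liver overlapped with each other and with no other organ, and heart 2, heart 3 and tail 3 were not well above background. Emcn was higher in gonad by 3.86 ± 0.67 (adjusted p = 0.0048) and in liver by 4.0 ± 0.67 (adjusted p = 0.0065, log2 ± SE, limma).

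Pecam1, which encodes the platelet and endothelial adhesion molecule CD31, was not called in either organ on the 18 arrays. Gonad had 46.8, 206 and 95.3 and liver 75.4, 255 and 118, against 126 and 109 in kidney, 46.5 and 22.2 in skin, 28.0 and 18.6 in lung and 23.8, 38.1 and 31.0 in tail. The high-background array heart 1 read 100.2, against 18.9 and 21.1 on heart 2 and heart 3. Its log2 difference was 1.03 ± 0.53 in gonad (adjusted p = 0.55) and 1.53 ± 0.53 in liver (adjusted p = 0.19). On the 13 arrays Pecam1 was higher in liver, by 1.99 ± 0.49 (limma, adjusted p = 0.037), and its difference in gonad was 1.49 ± 0.57 (adjusted p = 0.076).

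Among the receptors, Robo4, an endothelial member of the Roundabout family, differed most in liver. It had 168, 1338 and 584 in gonad and 868, 3290.5 and 643 in liver. Kidney had 63.6 and 41.9, lung 106 and 12.7, skin 39.3 and 14.3, heart 6.81, 21.2 and 17.2, and tail 1.78, 1.1 and 5.83. Tail was not well above background on any of its 3 arrays, so each fold is a lower bound in which those arrays count at their detection floor. Robo4 was at least 13.2-fold higher in gonad (limma, adjusted p = 0.011) and at least 36.8-fold higher in liver (adjusted p = 0.0024). Here and below, the adjusted p beside a lower bound is from limma's fit of the measured signals, dim arrays included.

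Tie1 encodes an orphan receptor tyrosine kinase that partners with the receptor encoded by Tek. Scaled signal was 47.7, 247 and 135 in gonad and 126, 585 and 229 in liver. All 3 tail arrays (0.589, 3.91 and 3.69), heart 2 and heart 3 (2.06 and 0.996), lung 3 (2.91) and skin 2 (2.59) were not well above background, and the remaining arrays read between 13.6 and 28.5. With every dim array at its detection floor, Tie1 was at least 17.2-fold higher in liver. The fit of the measured signals called it there (log2 difference 4.66, limma, adjusted p = 0.020). That call was lost without any single liver array (adjusted p = 0.053 to 0.16) and with scaling to the median of detected probes (adjusted p = 0.053). In gonad the lower bound was 6.86-fold and the test did not pass (adjusted p = 0.080), and on the 13 arrays Tie1 was called, at least 7.70-fold higher (adjusted p = 0.027).

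Kdr, the gene of the main signalling receptor for vascular endothelial growth factor A, is measured by 2 probes that map to the same RefSeq accession and do not behave alike. The probe with the higher mean, A_55_P2094469 (1 spot per array), read 384, 334 and 573 in gonad and 273, 434 and 330 in liver, against 276 to 479 on the lung, skin and tail arrays, 86.0, 299.8 and 419 in heart and 84.2 and 101 in kidney. Its log2 difference was 0.75 ± 0.39 in gonad (adjusted p = 0.55) and 0.39 ± 0.39 in liver (adjusted p = 0.43), and it was well above background on all 18 arrays. The probe A_51_P316553 (10 spots per array) read 53.7, 230 and 97.0 in gonad and 127, 456 and 95.7 in liver. On it lung had 76.0 and 35.3, kidney 25.8 and 31.0 and skin 30.3 and 24.0, while heart (0.945, 5.06 and 4.37) and tail (2.13, 1.07 and 1.86) were not well above background on any array.

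With the second probe in place of the first, Kdr was called in both organs: at least 4.69-fold higher in gonad (limma, adjusted p = 0.024) and at least 8.5-fold higher in liver (adjusted p = 0.0065). It was then also lower in tail (adjusted p = 2.6e-04) and in heart (adjusted p = 0.0022), and the F test passed (adjusted p = 1.8e-04). Whether Kdr differed between organs thus depends on the probe, and probe sequences were not used here.

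**Figure D2:**
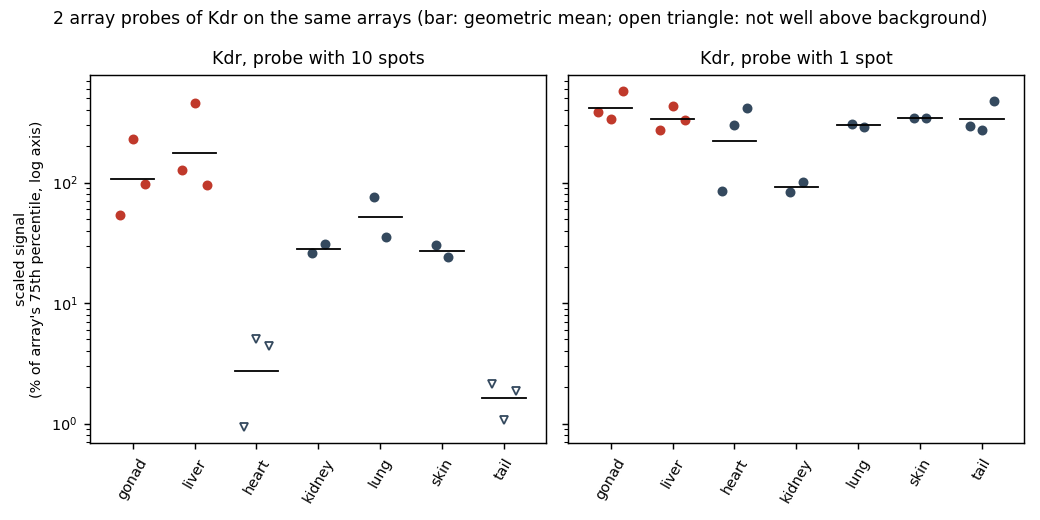
Scaled signal of the 2 Kdr probes on the same 18 arrays (percent of the array's 75th percentile, log axis, shared by both panels); bars are geometric means and open triangles are probes not well above background. The probe with 10 spots lies between 53.7 and 456 in gonad and liver and is not well above background in heart and tail, while the probe with 1 spot is well above background on every array.

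Tek encodes TIE2, the angiopoietin receptor, and it set tail and heart apart. Tail arrays had 106, 111 and 108 and heart arrays 63.0, 91.6 and 98.4. Kidney had 57.5 and 45.7, gonad 5.95, 26.5 and 29.0, liver 11, 37.7 and 20.3, skin 14.3 and 10.7, and lung 8.15 and 4.36. The 3 tail arrays lay above every other array, which held for 4.33% of all genes. The heart range did not overlap with any other organ's. Ordered by mean log2 level, tail, heart and kidney each lay clear of the next organ down, whereas liver overlapped with gonad and gonad with skin.

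Set against the other 6 organs, Tek was higher in tail by 2.32 ± 0.45 (log2 ± SE, limma, adjusted p = 0.0056), as 4.08% of all genes were, and higher in heart by 1.87 ± 0.45 (adjusted p = 0.031), as 1.37% were. The tail call was kept in all 18 fits that left out 1 array. The heart call was lost in 9 of the 18: without heart 2, heart 3, kidney 2, lung 3, either skin array or any tail array. On the 13 arrays Tek was higher in both, by 2.59 ± 0.55 in tail (adjusted p = 0.0075) and by 2.38 ± 0.55 in heart (adjusted p = 0.019). In gonad and liver the log2 difference of Tek was -0.84 ± 0.45 (adjusted p = 0.57) and -0.50 ± 0.45 (adjusted p = 0.39).

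In the same tail comparison 4 of the 10 genes were lower (2.19% of all genes): Robo4 by at least 19.4-fold (limma, adjusted p = 6.9e-04), Cdh5 with a log2 difference of -3.31 ± 0.56 (adjusted p = 0.0021), Emcn with -3.8 ± 0.67 (adjusted p = 0.0027) and Tie1 by at least 5.43-fold (adjusted p = 0.037). The Tie1 call was lost in 10 of the 18 fits without 1 array and with the slide as a block. In heart 4 were lower (2.39% of all genes): Sox18 with a log2 difference of -3.52 ± 0.61 (adjusted p = 0.0034), Emcn with -3.28 ± 0.67 (adjusted p = 0.011), Cdh5 with -2.54 ± 0.56 (adjusted p = 0.018) and Nos3 with -2.12 ± 0.55 (adjusted p = 0.048). Leaving out heart 2 or heart 3 left Sox18 alone among them, and the Nos3 call was lost in 13 of the 18 fits and on the 13 arrays (adjusted p = 0.11). In both organs Tek was high and Cdh5 and Emcn were low.

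Angpt1, which encodes the activating ligand of the Tek receptor, had its highest scaled signals in the same organs. Tail arrays had 562, 327 and 323 and heart arrays 17.8, 76.1 and 102. The other arrays read between 3.22 and 25.8, with liver 1 not well above background. Angpt1 was higher in tail by 4.97 ± 0.51 (log2 ± SE, limma, adjusted p = 5.0e-05) and, on the 13 arrays, also in heart, by 2.10 ± 0.50 (adjusted p = 0.022). It was lower in liver by 2.17 on the log2 scale (adjusted p = 0.0499). Angpt2, the gene of the ligand that antagonises Angpt1 in many settings, lay the other way, at 2.72 ± 0.58 in liver (adjusted p = 0.028) and -2.05 ± 0.58 in tail (adjusted p = 0.0496).

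**Figure D3:**
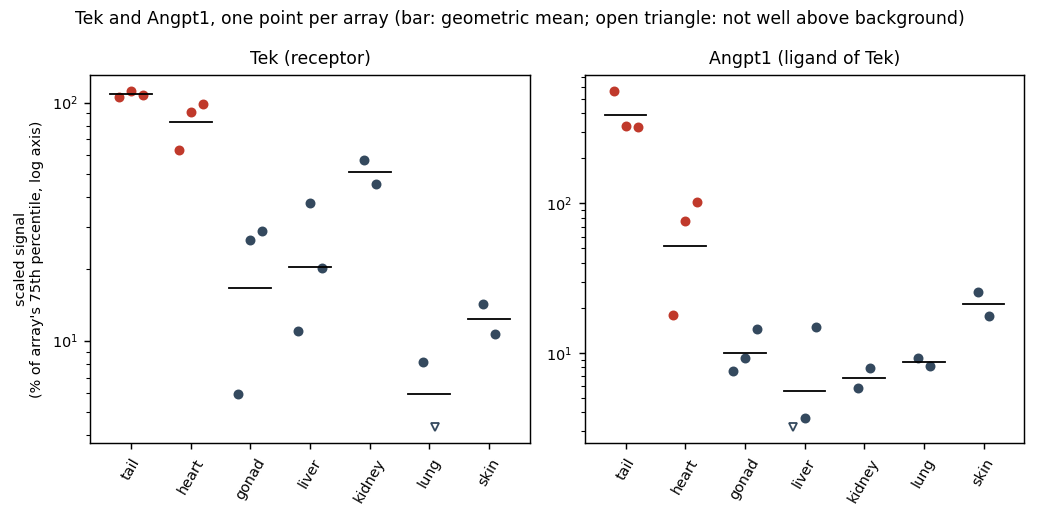
Scaled signal of Tek and of the gene for its ligand Angpt1 on each array (percent of the array's 75th percentile, log axes that differ between the panels), with tail and heart in red; bars are geometric means and open triangles are probes not well above background. Tail arrays lie above all others in both panels, between 106 and 111 for Tek and between 323 and 562 for Angpt1.

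Nos3, which encodes endothelial nitric oxide synthase, was the member that set liver furthest from gonad. Liver had 298, 1659 and 308, and gonad 62.8, 249 and 148. Lung had 112 and 39.8, skin 60.1 and 30.3, tail 40.1, 36.4 and 48.7, kidney 28.3 and 25.6 and heart 9.29, 23.3 and 26.5. The liver arrays lay above all others, and gonad overlapped with lung. Nos3 was higher in liver by 3.59 ± 0.55 (log2 ± SE, limma, adjusted p = 0.0040), and its difference in gonad was 1.24 ± 0.55 (adjusted p = 0.42). The other Nos3 probe (10 spots) read 72.8, 383 and 90.1 in liver and 14.4, 63.6 and 58.6 in gonad, and its liver difference of 2.44 ± 0.69 did not pass (adjusted p = 0.10) on 18 arrays but did on the 13 (3.00 ± 0.63, adjusted p = 0.021).

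Sox18 encodes a transcription factor of blood and lymph vessel development. It had 63.0, 266 and 125 in gonad and 87.0, 428 and 190 in liver. Kidney had 27.7 and 33.5, lung 23.5 and 9.39, skin 20.5 and 12.5, tail 5.50, 8.53 and 5.85 and heart 9.06, 2.47 and 1.01, with heart 2 and heart 3 not well above background. Sox18 was higher in gonad by 2.90 ± 0.61 (adjusted p = 0.017) and in liver by 3.58 ± 0.61 (adjusted p = 0.0068, log2 ± SE, limma).

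Erg, an ETS family transcription factor that maintains endothelial identity, was dimmer and varied more between replicates. Gonad had 3.47, 28.8 and 45.0 and liver 9.03, 49.98 and 19.9, but the high-background arrays heart 1, kidney 1 and tail 2 read 24.7, 22.4 and 11.1, and 6 arrays of heart, lung, skin and tail were not well above background. The log2 difference was 1.63 ± 1.00 in gonad (adjusted p = 0.62) and 2.02 ± 1.00 in liver (adjusted p = 0.24). On the 13 arrays, where heart and tail were not well above background at all, Erg was at least 3.65-fold higher in liver (limma, adjusted p = 0.049). Its other probe was not well above background on any array of heart, kidney, lung, skin or tail and passed on gonad 2, gonad 3 and liver 2.

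**Figure D4:**
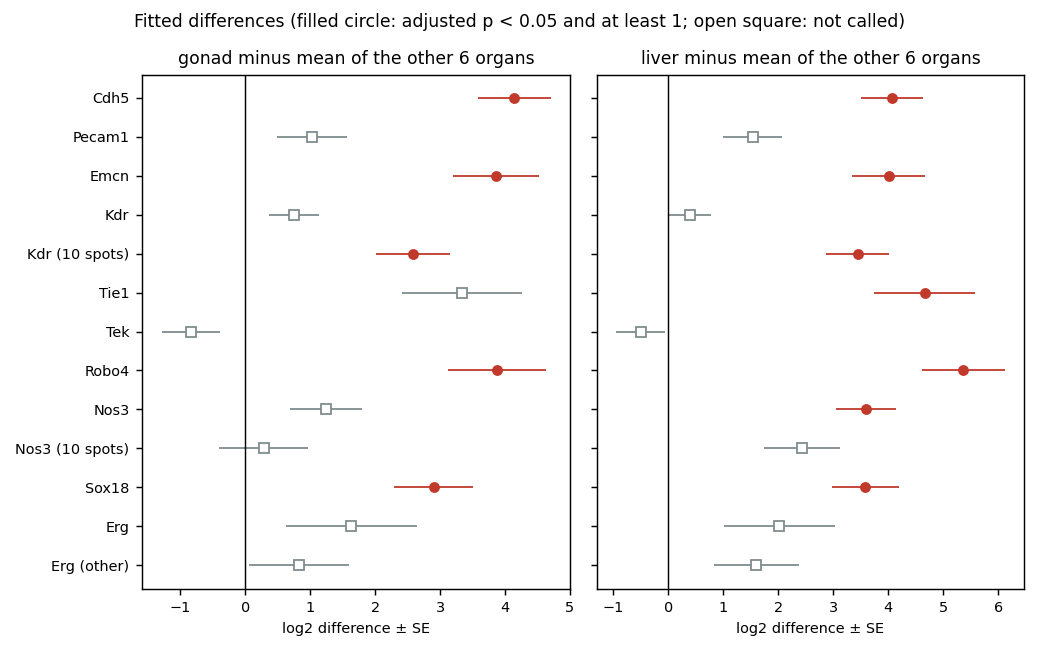
Fitted log2 difference ± SE of each gene in gonad (left) and in liver (right) against the mean of the other 6 organs, with the other probes of Kdr, Nos3 and Erg in rows of their own. Filled circles were called: 4 of the 10 genes in gonad and 6 in liver, and the Kdr probe with 10 spots in both. All plotted values are from the measured signals, arrays not well above background included. For Tie1, Robo4 and that Kdr probe the lower bounds stand in the text. The other Erg probe was not well above background on any array of heart, kidney, lung, skin or tail, and no bound is given for it.

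The upstream windows of 3 members that were high in gonad and liver are printed with that of Tek, which was high in tail and heart, so that genes with different patterns can be compared. They come from RefSeq (GRCm38.p6), where 6 of the 10 members had an entry (8 windows) and Cdh5, Pecam1, Nos3 and Sox18 had none, and each runs from 250 bases before to 50 after the gene's start, 5′ to 3′ on the gene's strand. Capitals mark the ETS-type core searched as AGGAAG or CGGAAG on both strands. Coordinates are chr4:118489800-118490099 (minus strand) for Tie1, chr9:37401722-37402021 (plus) for Robo4, chr3:137340828-137341127 (plus) for Emcn and chr4:94739039-94739338 (plus) for Tek.
Tie1: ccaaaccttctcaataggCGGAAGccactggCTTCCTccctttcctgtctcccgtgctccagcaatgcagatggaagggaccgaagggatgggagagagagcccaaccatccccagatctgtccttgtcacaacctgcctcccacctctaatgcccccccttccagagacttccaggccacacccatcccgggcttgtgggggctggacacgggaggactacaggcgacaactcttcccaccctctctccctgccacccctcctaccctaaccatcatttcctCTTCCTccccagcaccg
Robo4: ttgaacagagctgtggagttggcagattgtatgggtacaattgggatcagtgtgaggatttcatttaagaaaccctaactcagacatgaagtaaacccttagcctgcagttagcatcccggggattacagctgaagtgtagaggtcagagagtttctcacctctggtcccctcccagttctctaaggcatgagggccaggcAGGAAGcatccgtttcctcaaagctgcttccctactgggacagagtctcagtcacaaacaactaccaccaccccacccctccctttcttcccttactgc
Emcn: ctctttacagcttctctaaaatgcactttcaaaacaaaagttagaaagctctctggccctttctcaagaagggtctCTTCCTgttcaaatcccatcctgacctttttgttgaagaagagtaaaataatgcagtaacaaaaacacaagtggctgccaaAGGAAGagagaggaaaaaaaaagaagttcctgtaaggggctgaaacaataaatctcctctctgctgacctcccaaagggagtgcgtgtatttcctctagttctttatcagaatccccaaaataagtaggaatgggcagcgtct
Tek: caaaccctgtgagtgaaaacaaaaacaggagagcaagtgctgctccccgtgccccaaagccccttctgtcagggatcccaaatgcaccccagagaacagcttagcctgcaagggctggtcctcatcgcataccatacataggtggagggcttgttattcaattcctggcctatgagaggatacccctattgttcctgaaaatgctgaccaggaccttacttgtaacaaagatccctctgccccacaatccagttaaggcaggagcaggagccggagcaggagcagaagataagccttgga
The Tie1 window held 3 matches, at positions 19, 32 and 284, the Emcn window 2, at positions 77 and 158, and the Robo4 window 1, at position 202. The Tek and Kdr windows held 0, and 1 of the 3 Erg windows held 1. Such a match was present in 46.5% of all 32851 windows of the same length. A core of the SOX type, searched as ACAAAG or ACAATG on both strands and sharing no letters with an ETS match of these windows, was found once in the Tek window, at position 225, and once in 1 Erg window, against 28.6% of all windows.

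Replicates of the same organ differed together. Liver 2 had the highest value of the 3 liver arrays for 10 of the 10 members, as 25.0% of all genes did, and read a median of 3.66 times liver 1 and 2.38 times liver 3 over the members, while the median of all genes was 0.921 and 0.891. Gonad 2 was highest of the gonad arrays for 7 members (22.0% of all genes), with a median of 4.43 times gonad 1. Lung 1 exceeded lung 3 for all 10 members, by a median of 3.34 times (all genes 1.02). The high-background array heart 1 exceeded heart 2 and heart 3 for 6 members each, by a median over the 10 of 2.87 and 4.58 times, while the median of all genes was 0.684 and 0.687. The calls leaned on the high arrays: without gonad 2 only Cdh5 stayed called in gonad, and without liver 2 Cdh5, Robo4 and Nos3 stayed called in liver.

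Within slides, where arrays of several organs were processed side by side, the differences of the measured signals, dim arrays included, kept their sign. For the 4 genes called in gonad the within-slide difference was above 0 on 3 of 3 slides, from 1.95 to 6.44 (log2). For the 6 called in liver it was above 0 on 3 of 3 slides, from 2.49 to 6.23. These genes were called on the same arrays, so their sign within slides is no separate check. Pecam1, Tie1, Nos3 and the Kdr probe with 1 spot, not called in gonad, were also above 0 there on 3 of 3 slides. No slide 2 array was from kidney and no slide 3 array from lung or skin.

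Set against heart, lung, skin and tail alone, a comparison added after the values were seen, Cdh5, Robo4, Emcn, Sox18 and Tie1 were higher in gonad, as 2.35% of all genes were. Tie1, not well above background on 7 of those 10 arrays, was at least 15.1-fold higher (limma, adjusted p = 0.011). The same 6 genes as before were higher in liver, as 1.49% of all genes were. Between gonad and liver 0 of the 10 genes were called, against 0.862% of all genes in either direction. At an unadjusted p under 0.05 limma found 1, Nos3 (-2.01 ± 0.71, unadjusted p = 0.013, adjusted p = 0.41). The SE of these differences ran from 0.50 for Kdr to 1.29 for Erg.

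Other endothelial genes, none of them a member, moved in the same comparisons. Of 24 surface, junction and secreted genes 9 were higher in gonad and 0 lower, with a median log2 difference of 1.38, and 13 were higher in liver and 0 lower, with a median of 2.52. For these and the lists that follow, the shares of all genes higher were the 2.13% in gonad and 1.21% in liver given above, and the medians of all genes were -0.06 and 0.12. In tail 4.08% of all genes were higher and 2.19% lower, and in heart 1.37% were higher and 2.39% lower. The largest in both organs included Plvap, which encodes a protein of endothelial fenestrae (3.65 ± 0.54 in gonad, adjusted p = 0.0017, and 4.29 ± 0.54 in liver, adjusted p = 0.0012), and Mmrn2 (3.40 ± 0.59, adjusted p = 0.0048, and 4.80 ± 0.59, adjusted p = 0.0011). Icam2 and Cd93 were next in gonad (3.05 ± 0.53 and 2.84 ± 0.46), and Adgrf5 and Rasip1 in liver (3.59 ± 0.83 and 3.58 ± 0.72). Plvap read 472, 2909 and 1677 in gonad and 861, 4773 and 1772 in liver, and between 10.2 and 234 on every other array, so the rise of gonad 2 and liver 2 over their replicates was present here too. In tail 7 of the 24 were lower, led by Ptprb (-4.27 ± 0.45), Plvap (-4.03 ± 0.54), Mmrn2 (-3.89 ± 0.59) and Icam2 (-3.58 ± 0.53), and 2 higher: Clec14a (at least 14.4-fold) and Cd34 (3.23 ± 0.47). In heart 4 were lower, Plvap (-2.84 ± 0.54), S1pr1 (-2.17 ± 0.56), Cd93 (-1.77 ± 0.46) and Clec14a, and 1 higher, the phosphatase gene Ptprb (2.64 ± 0.45). No size is given for Clec14a there, since it was not well above background on any heart, kidney or skin array. The other values are log2 differences ± SE from limma.

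Of 15 transcription factor genes tested Lmo2, a partner of the haematopoietic and endothelial factor TAL1, was higher in gonad (2.63 ± 0.54, limma, adjusted p = 0.016) and in liver (3.78 ± 0.54, adjusted p = 0.0027), and Meox2 was lower in gonad (-5.54 ± 0.76, adjusted p = 9.9e-04), as 0.812% of all genes were, and higher in tail (5.15 ± 0.76, adjusted p = 8.1e-04). The list's median was 0.68 in gonad and 1.07 in liver. Of 12 arterial and venous genes, with medians of 0.63 and 0.83, Gja4, the connexin 37 gene of arterial endothelium, was the 1 called in gonad (2.75 ± 0.47, adjusted p = 0.0046) and in liver (2.23 ± 0.47, adjusted p = 0.027). On the 13 arrays 4 of 16 transcription factor genes were higher in gonad and 2 lower, and 4 of 12 arterial and venous genes were higher and 1 lower, while 4.76% of all genes were higher and 18.7% lower. Of 11 nitric oxide pathway genes beside Nos3 0 were called in gonad (median -0.01) or in liver (median 0.46), and in heart the soluble guanylate cyclase genes Gucy1a1 (3.46 ± 0.44) and Gucy1b1 (2.74 ± 0.45) were higher. Among 11 ligand genes of the member receptors (median 0.05 in gonad and 0.78 in liver) Pgf, a ligand of the VEGF receptor FLT1, was higher in gonad (1.72 ± 0.42, adjusted p = 0.040) and lower in heart (-2.0 ± 0.42, adjusted p = 0.013).

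Genes of liver sinusoidal endothelium were called in liver only in part. Of 11 tested 3 were higher in liver (list median 1.22), Stab1 by 4.47 ± 0.73 (limma, adjusted p = 0.0060), Mrc1 at least 7.07-fold (adjusted p = 0.028) and Lyve1 at least 3.81-fold (adjusted p = 0.034), and 0 were called in gonad (list median 0.03). Clec4g and Mrc1 were not well above background on any gonad array, and gonad minus liver 0 of the 11 were called. On the 13 arrays 7 of 12 were higher in liver (2.63% of all genes), and 2 were lower in gonad than in liver (3.68% of all genes). Stab1 read 825, 4458 and 1299 in liver and 178, 1267 and 777 in gonad, against 10.4 to 197 on the other arrays. Gonad 1 thus overlapped with the other organs, and Stab1 was not called in gonad (2.62 on the log2 scale, adjusted p = 0.081). Of 6 lymphatic genes (median 1.87 in liver and 0.01 in gonad) Mmrn1 (at least 6.72-fold, adjusted p = 0.025) and Lyve1 were higher in liver, and 0 in gonad.

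Markers of other cell types moved with the members in part. Of 6 mesothelial genes 2 were higher in gonad (median 2.40) and 4 in liver (median 3.49), among them Wt1 (4.45 ± 0.55 in gonad, limma, adjusted p = 4.5e-04, and 4.47 ± 0.55 in liver, adjusted p = 0.0012). Gpm6a was also higher in both (at least 6.77-fold in gonad and 10.4-fold in liver), and Upk3b (at least 12.6-fold) and Lrrn4 (at least 6.31-fold) in liver. The members themselves summed to 1443 to 4822 in gonad and to 2341 to 8600 in liver. The summed scaled signal of the 6 mesothelial genes ran from 1872 to 3653 in gonad and from 1553 to 10117 in liver, but also from 3471 to 7655 in lung, where the members summed to 410 to 757, and from 120 to 888 in heart, skin and tail. In kidney the mesothelial sum ran from 1736 to 2457, where the members summed to 536 to 558. Of 10 blood and macrophage genes 3 were higher in liver (list median 1.87), C1qa (5.20 ± 1.05), Fcer1g (3.18 ± 0.64) and Lyz2 (2.89 ± 0.67), and 0 were called in gonad (list median -1.62). In gonad minus liver 4 were lower, C1qa (-7.11 ± 1.35), Lyz2 (-4.43 ± 0.86), Fcer1g (-4.08 ± 0.82) and Cd14 (-2.36 ± 0.50). C1qa read 845, 467 and 40.7 in liver and 0.668, 0.682 and 13.4 in gonad, where gonad 1 and gonad 2 were not well above background. Liver 1, its highest array, was the lowest of the liver arrays for 9 of the 10 members, as it was for 29.3% of all genes.

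The summed signal of the 10 blood and macrophage genes ran from 5156 to 7049 in liver and from 3892 to 6920 in gonad, against 830 to 4572 on the other arrays. The sum does not follow the list's single genes: on the 13 arrays 7 of 11 were lower in gonad (median -2.27) and 0 higher, and 9 of 11 were lower in gonad than in liver (median -3.96). Of all genes on these arrays, 18.7% were lower and 4.76% higher in gonad, and 3.68% were lower in gonad than in liver. Of 10 pericyte and mural genes Des (2.87 ± 0.60, adjusted p = 0.017) and Cspg4 (2.46 ± 0.34, adjusted p = 0.0011) were higher in gonad and 0 in liver, with summed signals of 5796 to 9194 in gonad and 5414 to 7950 in liver. The pericyte sums overlapped with those of heart (1700 to 7767), lung (5386 to 6381) and tail (4719 to 7050). Skin had 5346 to 5806 and kidney 1472 to 1760. The 12 fibroblast genes summed to 143829 to 170378 in gonad and to 185040 to 220919 in liver. They summed to 18015 to 33598 in kidney and to 42953 on heart 1, and to no less than 134489 on any other array. Of 5 platelet genes 0 were higher in gonad or liver, and Ppbp was lower in both and was not well above background on any gonad or liver array. Of 8 epithelial and hepatocyte genes 0 were called in gonad or liver, and Alb and Apoa1 were not well above background on any liver array. Lum, a proteoglycan gene, was the 1 fibroblast gene called in gonad or liver, lower in gonad (-2.92 ± 0.67) and higher in liver (3.30 ± 0.67). The part of these cells in the members' signal was not tested.

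The same lists were read in tail and heart, where Tek was high. Over all genes the median difference was 0.34 in tail and -0.11 in heart. The shares of all genes called were 4.08% higher and 2.19% lower in tail, and 1.37% higher and 2.39% lower in heart. In tail the ligand genes Vegfd (2.95 ± 0.51) and Angpt4 (2.57 ± 0.39) were higher beside Angpt1, and so were the caveolin gene Cav1 (1.29 ± 0.30) and Ndufa4l2 (2.06 ± 0.32). Notch4 (-2.92 ± 0.51), Stab1 (-3.05 ± 0.73), Gja4 (-1.76 ± 0.47), Lmo2 (-2.49 ± 0.54) and Des (-2.37 ± 0.60) were lower there. Of the 6 mesothelial genes 5 were lower in tail, among them Wt1 (4.54, 1.70 and 1.09 scaled signal, with tail 1 alone well above background), Lrrn4, Gpm6a and Upk3b, and 2 were lower in heart, Gpm6a and Wt1 (-2.55 ± 0.55). Sizes are not given for Lrrn4 and Gpm6a, which were not well above background on any tail or skin array (Gpm6a also on no heart array), nor for Upk3b, which was dim on every skin array. In heart Bmx (3.01 ± 0.50) was higher, and Efnb2 (-2.08 ± 0.41), Nrp2 (-1.79 ± 0.47), Gata2 (-2.14 ± 0.31), Cspg4 (-4.03 ± 0.34), Des (-2.58 ± 0.60), Cav1 (-1.32 ± 0.30) and Cd14 (-1.68 ± 0.39) were lower. Pf4, a platelet gene, was higher in heart (5.49 ± 0.85), and Ppbp was higher in tail (at least 10.5-fold) and lower in heart, where no array had it well above background. Krt8 and Krt18 were lower in both, and Lum was higher in heart (4.28 ± 0.67) and Fap lower in tail (-2.19 ± 0.60).

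Across the 18 arrays the members were compared with the mean of their standardised log2 values, as a description over arrays that share slides, background and organ. The mean is built from the members, so a member's r is no separate check that the members moved together. It is not comparable with the r of genes outside them. Pearson's r was 0.94 for Tie1, 0.93 for Cdh5, 0.92 for Sox18, 0.90 for Emcn, 0.87 for Robo4, 0.82 for Pecam1, 0.81 for Nos3 and 0.77 for Erg. The order was another on the 13 arrays, with 0.98 for Pecam1, 0.96 for Erg, 0.94 for Tie1, 0.93 for Nos3, 0.91 for Cdh5, 0.90 for Robo4 and Sox18 and 0.88 for Emcn. Tek had -0.33 on the 18 arrays and -0.25 on the 13, the Kdr probe with 1 spot 0.06 and 0.11, and the Kdr probe with 10 spots 0.76 and 0.85. The genes outside the members that followed this mean most closely were Gimap5 (r = 0.97), Sh3tc1, Stab1, Myct1, She, Mmrn2, Adgrf5, Mall, Gimap8 and Gimap1 (r = 0.93), and on the 13 arrays their r ran from 0.94 to 0.97. Of these Stab1, Myct1, Mmrn2 and Adgrf5 also stand in the endothelial lists.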

How the data were processed

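Per the file headers, the authors scanned 1-colour Agilent mouse arrays of 62976 spots with Agilent Feature Extraction 11.0.1.1. The deposited intensity used here is the background-subtracted processed signal of each spot, before any normalization across arrays. The deposited spot flags hold another unit, 0 or 1. The deposited value table was checked to equal the raw median intensity on all 18 scanned arrays, and it alone holds lung replicate 2.

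Spots of 1 probe were averaged and flagged spots left out. RefSeq accessions tied 27235 of 55681 probes to 20660 genes. Intensities were divided by the 75th percentile of their array and put on a log2 scale. Each gene is represented by its brightest probe without missing values, provided at least 2 arrays flagged it well above background; 19715 genes remained. Organ means were fitted over all genes with limma 3.58.1 (R 4.3.3, 11 residual degrees of freedom) and p-values adjusted by Benjamini-Hochberg over all genes. The fit was tested on simulated data. Where an organ was not well above background on any array, a lower bound sets each dim array on the dimmer side at the higher of its own signal and the lowest signal well above background. Limma was fitted to the measured signals and not to these bounds. The number of arrays limits precision. Summed signals add probes of different brightness, so the brightest weigh most.

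The members and lists were chosen with earlier results of these data known. Named are all members, up to 4 called genes per list and direction, and the 10 best correlated genes. Genes called but not named here are in the counts.

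Alternatives were other background correction, scaling, filters and probe rules, the slide or replicate number as a block, the value table, the 13 arrays without high background, and leaving out each array. Equal replicate numbers did not mark paired samples: deviations from organ means correlated at a median of -0.04 over 46 same-number pairs and 0.02 over 92 others. Genomic coordinates of probes were not used here.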

Additional observations from a re-analysis of the deposited data

Results flagged for a closer look

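Only raw median spot intensities were at hand for lung replicate 2, so it was in none of the comparisons given above. It entered only the alternative fit of the value table. Values above the dark control spots of lung replicate 2 were found for several members. The negative controls there had a median of 39.0 and a 95th percentile of 71.2 (raw intensity, scanner units). Above that level lay Robo4 (202), Emcn (215), Cdh5 (137), Pecam1 (122.5), Tie1 (74.0), the Nos3 probes (97.55 and 1394.5) and the Kdr probes (352.7 for 10 spots and 1929 for 1 spot). On lung 1 and lung 3 the same raw values were 563.5 and 99.0 for Robo4, 580 and 168 for Emcn and 277 and 77.0 for Cdh5, so lung 2 lay between them for these genes. For the brighter Nos3 probe lung 2 lay above both, at 1394.5 against 601.5 and 205. The other Nos3 probe did not show this, at 97.55 on lung 2 against 211.5 and 93.25. Tek (59.5), Sox18 (68.0) and Erg (71.0) did not exceed the controls. With 1 such array no test of lung replicate 2 itself was made.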

How the results depend on the processing

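The count of the 10 members that differed among organs was 8, and ran from 7 to 9 under other settings and from 7 to 10 without 1 array. In gonad the count was 4. It was 1 without gonad replicate 2 and up to 5 without any other array, 2 at an adjusted p under 0.01 and up to 6 under other settings. In liver the count was 6. It was 3 without liver replicate 2 and up to 7 without any other array, and 5 to 8 under other settings. Gonad minus liver stayed at 0 throughout. With the replicate block the counts were 7 among organs, 4 in gonad, 6 in liver and 0 between them, and the calls of Tek and Nos3 in heart and of Tie1 in tail were lost. With the slide as a block Tie1 in tail was the 1 member call lost in gonad, liver, heart and tail. No member called in gonad or liver changed sign under any setting run. The cause of these losses was not tested, beyond the fits having fewer arrays.

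Over all genes, 579 were called in gonad (72.4% higher), against 4243 on the 13 arrays (20.3% higher), 1128 on those with normexp and quantile normalization (59.8%) and 2451 with high background as a term (36.8%). In liver 358 were called (66.5% higher), against 1108 on the 13 arrays (42.9%) and 458 with quantile normalization (83.2%). On the 13 arrays the members called higher were 5 in gonad and 8 in liver, with 0 lower in either. The raised background limits what kidney and heart 1 show of dim members.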
